A study of Mus musculus with 2 samples.

Results

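The 40 genes described here are the receptors for interferon and a panel of genes that interferon induces in mouse cells. They were chosen by name, with earlier results of these data known. All 40 symbols were found among the 23988 genes of a deposited RNA-seq table. Of these, 4 encode receptor chains and 36 are interferon-induced genes. The cells were untransformed myeloid progenitors (MP) of C57BL/6 mice, with no treatment: lineage-depleted (Lin-) bone marrow cells kept in culture for 7 days with IL3, SCF and IL6. Leukaemia cells with HOXA9 and MEIS1 are named in the title of the series, but the samples analysed here form 1 untransformed group of 2 libraries, called replicate 2 and replicate 1. The labels do not state whether separate animals or cultures were used, so the spread between the libraries may be technical. The data can show which parts of the interferon system these cultured cells expressed, at what level, and how closely the libraries matched.

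Interferons are secreted proteins that warn cells of infection. Type I interferons bind IFNAR1 and IFNAR2, and type II interferon (IFN-gamma) binds IFNGR1 and IFNGR2. The receptors activate JAK kinases and STAT factors. Complexes of STAT factors then act at DNA motifs called the ISRE, where IRF9 takes part, and GAS. In myeloid cells the induced proteins block virus entry, sense or degrade viral RNA, modify proteins with ISG15, or attack the vacuoles of intracellular microbes. Many of the genes also have a low level of expression in cells with no infection.

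The promoters of these genes were searched for both motifs. Promoter windows of 250 bases before and 50 after the transcript start were taken from RefSeq (GRCm38.p6), which held 33 of the 40 genes by symbol. Ifi27, Usp18, Dhx58, Mx1, Mx2, Zbp1 and Oas2 had no entry. An ISRE was searched on both strands as GAAA, any 2 bases and GAAA again, and a GAS as TTCNNNGAA, which reads the same on both strands. The stretches printed below were chosen to show the motif in 2 genes that were nearly silent here (Ifit1 and Ifit3), in 1 expressed at a low level (Isg15), in a higher one (Irgm1) and in 1 of the most abundant (Ifitm3), beside a receptor promoter with no match (Ifngr1). Capitals mark the ISRE letters, and each sequence runs 5′ to 3′ on the strand of its gene.
Ifit1, chr19:34640749-34640859, plus strand: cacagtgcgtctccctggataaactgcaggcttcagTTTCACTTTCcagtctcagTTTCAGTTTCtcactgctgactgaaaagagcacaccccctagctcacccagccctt
Ifit3, first site, chr19:34583364-34583393, plus strand: agtggtaagTTTCACTTTCctcttctggtt
Ifit3, next site, chr19:34583398-34583427, plus strand: ttaagtctgTTTCAGTTTCtactttcctct
Isg15, chr4:156200819-156200968, minus strand: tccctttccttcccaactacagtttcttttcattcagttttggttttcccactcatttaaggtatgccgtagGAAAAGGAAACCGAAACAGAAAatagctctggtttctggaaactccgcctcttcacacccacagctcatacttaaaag
Irgm1, chr11:48871421-48871570, minus strand: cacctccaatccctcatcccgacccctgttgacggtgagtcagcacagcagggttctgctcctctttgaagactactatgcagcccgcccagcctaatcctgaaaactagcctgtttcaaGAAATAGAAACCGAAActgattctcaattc
Ifitm3, the first 30 bases after the start, chr7:141010715-141010744, minus strand: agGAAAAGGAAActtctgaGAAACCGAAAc
Ifngr1, chr10:19591799-19591898, plus strand: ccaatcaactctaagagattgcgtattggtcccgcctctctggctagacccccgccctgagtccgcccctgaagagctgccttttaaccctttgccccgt

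An ISRE match was found in the windows of 21 of the 33 genes, against 3.99% of 27025 genes in the promoter table. The 21 genes were all interferon-induced ones, whereas the windows of the 4 receptor genes held none. GAS matches were found for 11 of the 33 genes, against 9.55% of all. The ISRE and GAS letters overlapped in 2 genes. Of 32 ISRE matches, overlapping ones counted separately, 24 began between 130 bases before the start and the start itself. Isg15 held 3 overlapping matches, the first beginning 78 bases before the start, and Irgm1 held 2 overlapping ones, the first beginning 30 bases before it. In Ifit1 the matches began 104 and 85 bases before the start, and in Ifit3 156 and 122 bases before it. A match is a description of letters and not a binding site shown to be used.

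**Figure D1:**
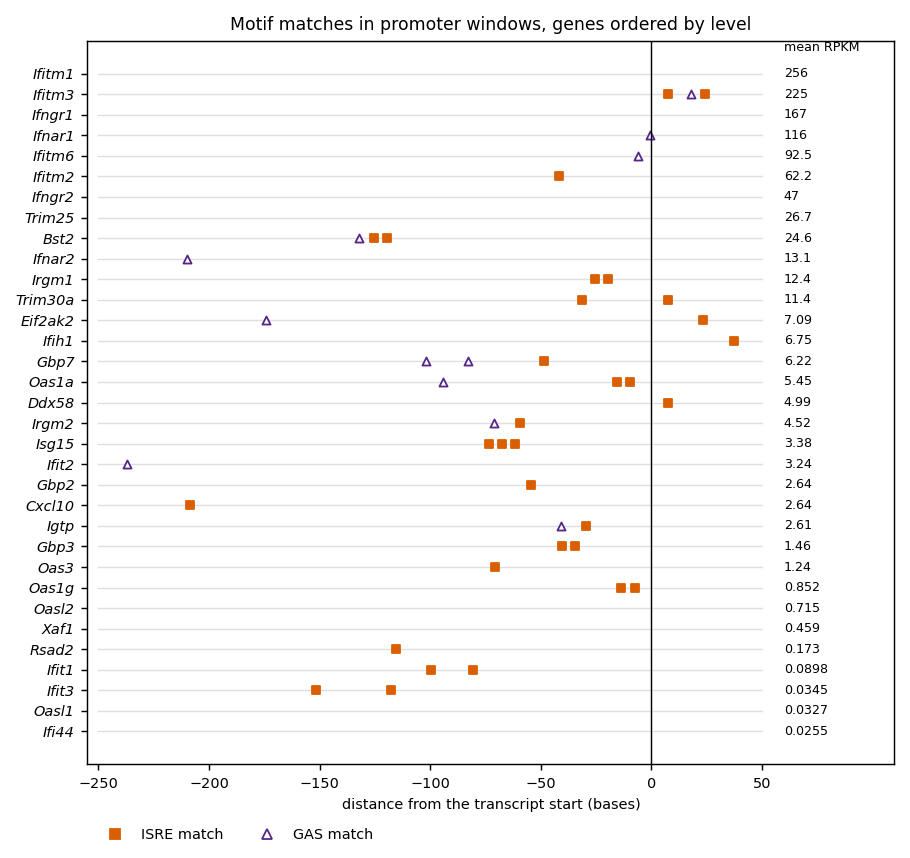
Positions of ISRE matches (filled squares) and GAS matches (open triangles) in the promoter windows of the 33 genes with an entry, by distance from the transcript start in bases. Genes run from the highest to the lowest mean RPKM, printed at the right: ISRE matches occur from Ifitm3 near the top, at 225 RPKM, to Ifit3 near the bottom, at 0.0345 RPKM.

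Levels are given as RPKM, reads scaled by gene length and by library size, which allows genes to be compared as far as the gene lengths the authors used are right. The median of the 40 genes was 4.75 RPKM in replicate 2 and 3.61 in replicate 1, above the medians of all genes in the table, which were 0.483 RPKM in replicate 2 and 0.318 RPKM in replicate 1. The 10445 genes that reached 1 RPKM in both libraries had medians of 14.3 RPKM in replicate 2 and 14.5 RPKM in replicate 1. Such genes are called detected here. Of the 40, 27 were detected, against 43.5% of all genes in the table. Another 5 reached 1 RPKM in 1 library and 8 in neither. Both medians of detected genes were exceeded by 9 of the 40, namely the 4 IFITM genes, Ifngr1, Ifnar1, Ifngr2, Trim25 and Bst2. The share of all genes above both medians was not counted, so these 9 are named as a description only. In bulk RNA, fewer expressing cells and less RNA per cell cannot be told apart.

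Markers of neutrophil progenitors were high in these cells. All 6 (Mpo, Elane, Prtn3, Ctsg, Ms4a3 and Cebpe) were detected, with a median of 722 RPKM in replicate 2 and 944 in replicate 1. Markers of B cells stayed under 1 RPKM, and Nkg7 was the detected one among 9 markers of T and NK cells. With 2 libraries the smallest p that an exact sign-flip permutation test allows is 0.5, so no test was run. Counts, medians and the spread over both libraries are given in its place.

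All 4 receptor genes were expressed, and 3 of them stood among the 7 most abundant genes of the panel. Ifngr1, the ligand-binding chain for IFN-gamma, was the highest receptor gene, with 172 RPKM in replicate 2 and 161 RPKM in replicate 1. Its partner Ifngr2 had 48.9 RPKM in replicate 2 and 45.05 RPKM in replicate 1. Both chains of the IFN-gamma receptor differed little between the libraries. Ifnar1, a chain of the type I interferon receptor, had 131 RPKM in replicate 2 and 101 RPKM in replicate 1. Ifnar2, the other chain, was the lowest of the 4, with 12.9 RPKM in replicate 2 and 13.4 RPKM in replicate 1. The order Ifngr1, Ifnar1, Ifngr2, Ifnar2 was the same in both libraries. The median of the receptor genes exceeded that of the 36 induced genes by 4.12 ± 0.18 on the log2(RPKM + 1) scale (SD, n = 2 libraries). This SD describes the agreement of the libraries and not the spread among genes. The groups overlapped, since Ifnar2 lay below every IFITM gene, Trim25 and Bst2 in both libraries.

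The most abundant induced genes were those of the IFITM family, small membrane proteins that hinder the entry of viruses into cells. Ifitm1 had 351 RPKM in replicate 2 and 159.8 RPKM in replicate 1, and ranked 335 of all genes by its mean. Ifitm3 had 279 RPKM in replicate 2 and 172 RPKM in replicate 1. Ifitm6 had 109.6 RPKM in replicate 2 and 75.5 RPKM in replicate 1. Replicate 2 was the higher library for each of the family's 4 genes, and Ifitm1 and Ifitm3 changed places between the libraries. Ifitm2 had 73.1 RPKM in replicate 2 and 51.3 RPKM in replicate 1. The 4 genes held 82.1% of the summed RPKM of the 36 induced genes in replicate 2 and 77.1% in replicate 1. They lie together on chromosome 7. Their windows differ in the motif, with matches in Ifitm3 (printed above, after the start) and in Ifitm2, and none in Ifitm1 or Ifitm6.

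Toward the other end were the IFIT and OAS genes, which are among the strongest responders to interferon in many cells. IFIT proteins bind foreign RNA, and OAS enzymes make oligoadenylates in response to double-stranded RNA. Their 9 genes had a median of 1.19 RPKM in replicate 2 and 0.769 RPKM in replicate 1, and the detected ones were Ifit2 and Oas1a. The median of the IFITM genes exceeded that of these 9 by 6.15 ± 0.25 on the log2(RPKM + 1) scale (SD, n = 2 libraries, not a spread among genes).

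Within the IFIT cluster on chromosome 19, neighbouring genes stood far apart. Ifit2 had 2.90 RPKM in replicate 2 and 3.58 RPKM in replicate 1. Ifit1 had 0.107 RPKM in replicate 2 and 0.0726 RPKM in replicate 1, from at least 17 reads in replicate 2 and 12 in replicate 1. Ifit3 had 0.0352 RPKM in replicate 2 and 0.0338 RPKM in replicate 1, at least 1 read in each. The 2 genes whose windows hold paired ISRE matches, printed above, were thus the low ones, and Ifit2, whose windows hold none, was the detected one. Ifit1 and Ifit3 have close copies in the mouse genome that may share or lose reads, so their single values are uncertain.

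Among the OAS genes on chromosome 5, Oas1a led with 5.53 RPKM in replicate 2 and 5.37 RPKM in replicate 1, and differed little between the libraries. Oas2 had 2.53 RPKM in replicate 2 and 0.864 RPKM in replicate 1. Oas3 had 1.71 RPKM in replicate 2 and 0.769 RPKM in replicate 1. Oas1g, a close copy of Oas1a that can share its reads, had 0.868 RPKM in replicate 2 and 0.835 RPKM in replicate 1. Of the OAS-like genes, Oasl2 had 1.19 RPKM in replicate 2 and 0.236 RPKM in replicate 1. Oasl1, known in mouse to restrain translation of Irf7, had 0.0442 RPKM in replicate 2 and 0.0212 RPKM in replicate 1.

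All 5 genes for cytoplasmic sensors and the RNA-activated kinase PKR were detected, at levels of 2.69 to 7.81 RPKM. Eif2ak2, which encodes PKR, had 6.503 RPKM in replicate 2 and 7.68 RPKM in replicate 1. Ifih1, the gene of the long double-stranded RNA sensor MDA5, had 6.71 RPKM in replicate 2 and 6.79 RPKM in replicate 1. Ddx58, the gene of RIG-I, had 4.92 RPKM in replicate 2 and 5.07 RPKM in replicate 1. These 3 were slightly lower in replicate 2. Dhx58, the gene of the related helicase LGP2, had 7.81 RPKM in replicate 2 and 3.63 RPKM in replicate 1. Zbp1, a sensor of Z-form nucleic acid, had 5.87 RPKM in replicate 2 and 2.69 RPKM in replicate 1. Those last genes were thus about as high as the others in replicate 2 and lower in replicate 1.

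The 4 genes of the ISG15 system and of ubiquitin ligases were all detected. Isg15, a ubiquitin-like protein joined to other proteins during infection, had 4.58 RPKM in replicate 2 and 2.18 RPKM in replicate 1. Usp18, the protease that removes it and also dampens signalling at IFNAR2, had 3.01 RPKM in replicate 2 and 1.55 RPKM in replicate 1. The ligase genes were higher than this pair in both libraries. Trim25, whose product acts on RIG-I, had 31.5 RPKM in replicate 2 and 21.8 RPKM in replicate 1. Trim30a, known in mouse to restrain Toll-like receptor signalling, had 12.3 RPKM in replicate 2 and 10.5 RPKM in replicate 1.

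Bst2, which encodes tetherin, a protein that holds budding virus at the cell surface, had 26.3 RPKM in replicate 2 and 23.0 RPKM in replicate 1. Rsad2, the gene of viperin, was under 1 RPKM, with 0.250 RPKM in replicate 2 and 0.0972 RPKM in replicate 1. Mx1 and Mx2 belong to a family of dynamin-like antiviral GTPases. RefSeq annotates both as transcribed pseudogenes in the C57BL/6J genome, and the labels give C57BL/6 as the strain of these cells. Mx1 had 2.78 RPKM in replicate 2 and 0.483 RPKM in replicate 1. Mx2 had 0.161 RPKM in replicate 2 and 0.0119 RPKM in replicate 1, from at least 13 reads in replicate 2 and 1 in replicate 1. Of this group Bst2 was the gene detected in both libraries.

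The GTPase genes that IFN-gamma strongly induces, which act on vacuoles that hold microbes, stood at low to moderate levels, and 5 of 6 were detected. Irgm1, the highest of the 6, had 9.996 RPKM in replicate 2 and 14.8 RPKM in replicate 1. Irgm2 had 4.44 RPKM in replicate 2 and 4.604 RPKM in replicate 1. Igtp had 3.22 RPKM in replicate 2 and 2.004 RPKM in replicate 1. These 3 immunity-related GTPase genes lie on chromosome 11, and all 6 of the GTPase genes hold an ISRE match. The guanylate-binding protein genes on chromosome 3 were all higher in replicate 2. Gbp7 had 7.94 RPKM in replicate 2 and 4.49 RPKM in replicate 1. Gbp2 had 3.78 RPKM in replicate 2 and 1.505 RPKM in replicate 1. Gbp3 had 2.23 RPKM in replicate 2 and 0.687 RPKM in replicate 1. The median of the 6 GTPase genes exceeded that of the IFIT and OAS genes by 1.21 ± 0.01 on the log2(RPKM + 1) scale. That SD (n = 2 libraries) is not a spread among genes.

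Of the other induced genes, Ifi27, whose product is found in mitochondria, had 14.5 RPKM in replicate 2 and 8.12 RPKM in replicate 1. Cxcl10, a chemokine that attracts T cells, had 2.74 RPKM in replicate 2 and 2.53 RPKM in replicate 1. Both were detected, and the remaining genes were not. Xaf1, whose product binds the apoptosis inhibitor XIAP, had 0.639 RPKM in replicate 2 and 0.279 RPKM in replicate 1. Ifi44 had 0.0511 RPKM in replicate 2 and was listed at 0 in replicate 1.

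**Figure D2:**
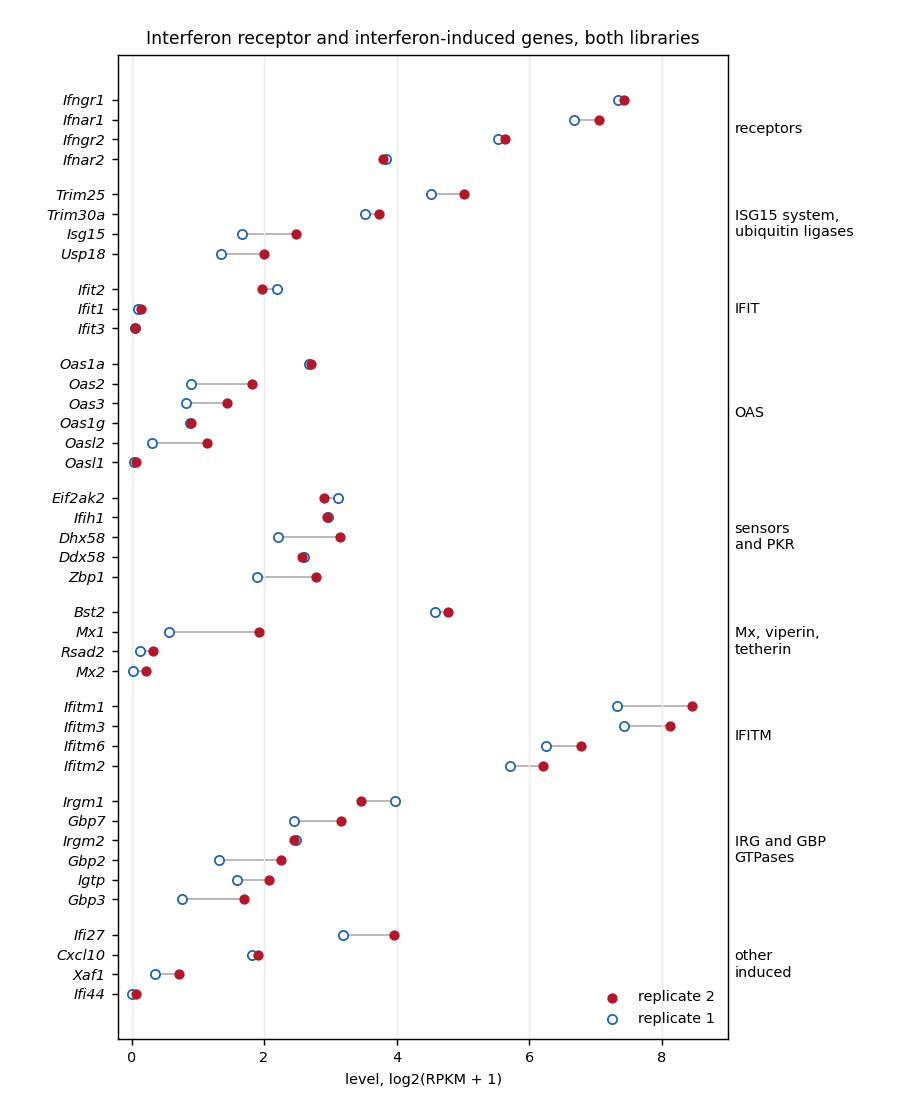
Level of each of the 40 genes on the log2(RPKM + 1) scale, grouped by role, with replicate 2 as filled and replicate 1 as open points joined by a line. Receptor and IFITM genes lie to the right, the IFITM genes between 51.3 and 351 RPKM, while Ifit3, Oasl1 and Ifi44 lie at the left edge, below 0.1 RPKM in both libraries.

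Genes with and without the ISRE letters covered much the same range of levels in these cells. The induced genes with a match had mean levels from 0.0345 to 225 RPKM, with a median of 4.52 RPKM. The 8 induced genes with a window and no match had mean levels from 0.0255 to 256 RPKM, with a median of 1.98 RPKM.

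The rest of the pathway was described from lists of its genes. No interferon gene reached 0.1 RPKM, and 19 of 21 were listed at 0 in both libraries, among them Ifnb1 and Ifng. Ifnab had 0.0606 RPKM in replicate 2 and was listed at 0 in replicate 1, and Ifnz was listed at 0 in replicate 2 and had 0.00833 RPKM in replicate 1. A listed 0 need not mean no RNA, since Hmgcs1, a cholesterol synthesis gene in most cells, was also at 0, and the Ifna genes are close copies that may lose reads. The signal transducers stood higher. All 6 were detected, with medians of 31.7 RPKM in replicate 2 and 26.9 RPKM in replicate 1. Jak1, used by both receptors, had 154 RPKM in replicate 2 and 132 RPKM in replicate 1. Tyk2, the kinase bound to IFNAR1, had 55.3 RPKM in replicate 2 and 42.0 RPKM in replicate 1. Both were somewhat higher in replicate 2. Jak2, the kinase bound to IFNGR2, had 36.5 RPKM in replicate 2 and 25.1 RPKM in replicate 1.

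Genes for interferon regulatory factors that switch on interferon or its targets were all detected, 5 of 5. Irf8, a factor of monocyte development, had 29.6 RPKM in replicate 2 and 7.91 RPKM in replicate 1. Irf5 had 24.7 RPKM in replicate 2 and 7.80 RPKM in replicate 1. These 2 of the 5 genes were at least 2-fold higher in replicate 2 on the scale with a pseudocount of 1. Of all genes with a mean of 1 RPKM or more, 5.3% were. Irf3, Irf1 and Irf7 did not pass 2-fold. Irf3 had 16.7 RPKM in replicate 2 and 16.3 RPKM in replicate 1. Irf1, an early target of IFN-gamma, had 10.2 RPKM in replicate 2 and 11.96 RPKM in replicate 1. Irf7, which amplifies the type I response, was the lowest, with 2.73 RPKM in replicate 2 and 4.08 RPKM in replicate 1. Among 10 genes of the sensors and adaptors upstream of interferon, 8 were detected, led by Myd88, with 40.9 RPKM in replicate 2 and 45.2 RPKM in replicate 1. Ikbke and Tbk1, kinases that activate IRF3, followed. Ikbke had 37.6 RPKM in replicate 2 and 33.0 RPKM in replicate 1, and Tbk1 15.8 RPKM in replicate 2 and 17.6 RPKM in replicate 1. Mb21d1, the gene of the cytoplasmic DNA sensor cGAS, had 10.5 RPKM in replicate 2 and 17.1 RPKM in replicate 1. Tlr3 and Tlr9 were the exceptions. Tlr3 had 0.294 RPKM in replicate 2 and 0.1997 RPKM in replicate 1, and Tlr9 0.969 RPKM in replicate 2 and 0.252 RPKM in replicate 1.

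Inhibitors of the pathway were detected too, 6 of 6, with medians of 41.7 RPKM in replicate 2 and 19.6 RPKM in replicate 1. These medians do not mean that most inhibitors were higher in replicate 2. Of the 6 genes, 4 were lower in it, namely Ptpn11, Ptpn6, Ptpn2 and Pias1. The median log2 ratio of the 6 (replicate 2 over replicate 1, pseudocount of 1) was -0.02. The phosphatase genes Ptpn11 and Ptpn6 led. Ptpn11 had 79.3 RPKM in replicate 2 and 102.8 RPKM in replicate 1, and Ptpn6 77.2 RPKM in replicate 2 and 77.8 RPKM in replicate 1. Socs1, a feedback inhibitor of JAK kinases induced by interferon and by other cytokines, had 25.96 RPKM in replicate 2 and 23.7 RPKM in replicate 1. Socs3, best known as an inhibitor of IL-6 and G-CSF signalling, had 57.5 RPKM in replicate 2 and 15.5 RPKM in replicate 1. Of the 6 inhibitor genes, Socs3 was the 1 at least 2-fold higher in replicate 2, against 5.3% of all genes with a mean of 1 RPKM or more. A further list held 44 other interferon-induced genes, with medians of 8.17 RPKM in replicate 2 and 5.48 RPKM in replicate 1, and 31 of them were detected. Among its highest members was Ifi30, a thiol reductase of antigen processing, with 90.1 RPKM in replicate 2 and 78.4 RPKM in replicate 1. Slfn2 had 98.6 RPKM in replicate 2 and 69.4 RPKM in replicate 1, and the immunoproteasome gene Psmb8 110.1 RPKM in replicate 2 and 56.8 RPKM in replicate 1. Each of these was higher in replicate 2.

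**Figure D3:**
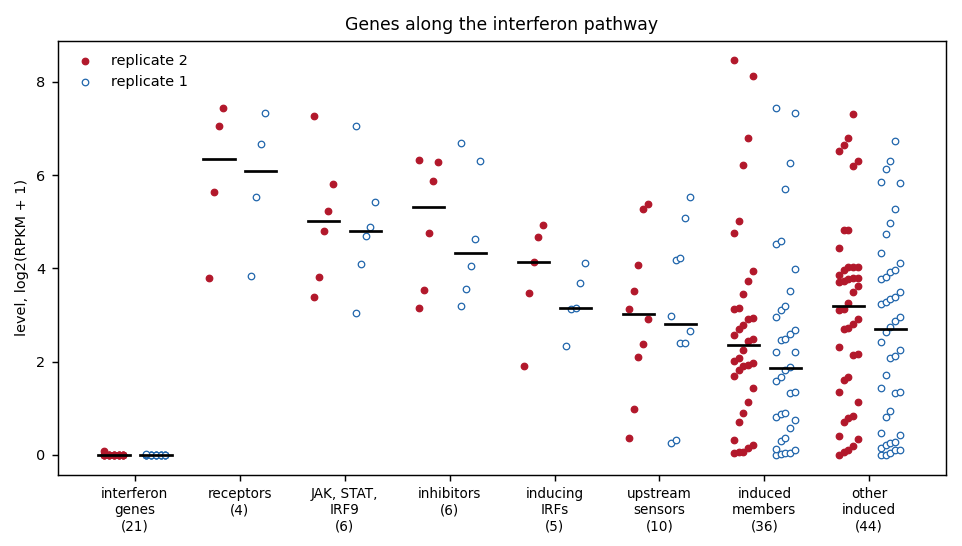
Levels along the interferon pathway on the log2(RPKM + 1) scale, with 1 point per gene, the number of genes under each group, replicate 2 at the left (filled) and replicate 1 at the right (open) of each pair, and bars at the medians. The interferon genes lie at or near 0, the receptors and signal transducers are expressed, and the 36 induced genes spread from 0 to 351 RPKM.

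Most of the 40 genes were higher in replicate 2, by modest amounts. Differences between the libraries are given as the log2 ratio (replicate 2 over replicate 1) after 1 RPKM was added to each value as a pseudocount, which understates the change of low genes. They cover genes whose mean reached 1 RPKM. The 31 genes of the panel that passed had a median ratio of 0.50, against -0.05 for all 10896 genes that passed, and 24 of the 31 were above 0, against 44.1% of all. The 7 genes lower in replicate 2 were Irgm1, Ifit2, Eif2ak2, Ifnar2, Irgm2, Ddx58 and Ifih1, with Irgm1 the lowest at -0.52. By group, the medians were 0.11 for the receptor genes, 0.61 for the 4 IFITM genes, 0.60 for the 6 GTPase genes and -0.01 for the 5 sensor and PKR genes. At least 2-fold higher in replicate 2 were 2 of the 31 genes, Mx1 at 1.35 and Ifitm1 at 1.13, against 5.3% of all genes, a share near the background. In the list of other interferon-induced genes, 7 of the 34 that passed were at least 2-fold higher in replicate 2. This share was above the 5.3% of all genes. The 7 were Mnda, the highest at 2.56, Ifi203, Slfn1, Ifi204, Slfn5, Tap1 and Psmb9, the lowest at 1.02. None of the 34 was at least 2-fold higher in replicate 1, and their median ratio was 0.41. No gene of the panel was at least 2-fold higher in replicate 1, against 0.734% of all. Each side is 1 library, so these differences have no replicate check and no p-value.

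For the low genes the ratios were larger without a pseudocount. The fold of Mx1 was 5.76, with a 95% interval of 3.71 to 9.31 from at least 133 reads in replicate 2 and 24 in replicate 1. Oasl2 had a fold of 5.06 with an interval of 2.88 to 9.50, and Gbp3 3.25 with an interval of 2.40 to 4.44. These intervals cover counting error in the 2 libraries and not the spread between cultures. By contrast, the interval for Ifih1, with a fold of 0.989, ran from 0.859 to 1.14, and that for Cxcl10, with 1.08, from 0.594 to 1.98 on at least 25 reads in replicate 2 and 24 in replicate 1, both spanning 1. With a pseudocount of 0.1, 9 of the 31 genes passed 2-fold in replicate 2, against 7.37% of all genes. They were Mx1, Gbp3, Oas2, Gbp2, Ifitm1, Zbp1, Dhx58, Oas3 and Isg15.

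Markers of other cells moved between the libraries as well. All 6 monocyte markers were higher in replicate 2, with a summed level of 1796 RPKM in replicate 2 and 707 RPKM in replicate 1 and a median log2 ratio of 2.11. All 7 macrophage markers found were higher in replicate 2, with sums of 2232 RPKM in replicate 2 and 637 RPKM in replicate 1 and a median ratio of 1.58. The 4 mast cell protease genes summed to 761 RPKM in replicate 2 and 9.38 RPKM in replicate 1. The 6 neutrophil progenitor markers were all lower in replicate 2, with sums of 4219 RPKM in replicate 2 and 5546 RPKM in replicate 1. For plasmacytoid dendritic cells, known as strong producers of type I interferon, Bst2 and Tcf4 were the detected markers of 7, Pacsin1 was listed at 0 in both libraries, and Siglech had 0.150 RPKM in replicate 2 and was listed at 0 in replicate 1. The 9 T and NK cell markers summed to 15.7 RPKM in replicate 2 and 9.82 RPKM in replicate 1. Most of this was Nkg7, with 14.9 RPKM in replicate 2 and 8.76 RPKM in replicate 1. Every other T and NK cell marker was under 1 RPKM in both libraries, with Cd3e and Ncr1 at 0 in both. The 4 B cell markers summed to 0.224 RPKM in replicate 2 and 0.428 RPKM in replicate 1, with Ms4a1 and Pax5 at 0 in both. The part of these cells in the ratios of the interferon panel was not tested.

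**Figure D4:**
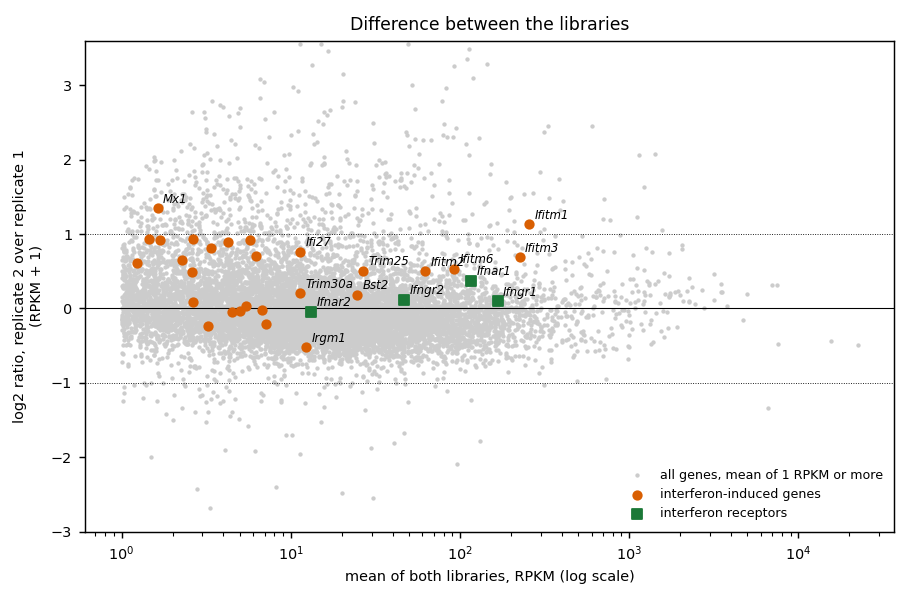
Log2 ratio of replicate 2 over replicate 1 (RPKM + 1) against the mean RPKM (log axis) for the 31 genes of the panel whose mean reached 1 RPKM, over all 10896 such genes in grey, of which 15 lie beyond the vertical axis. Dotted lines mark 2-fold: Mx1 and Ifitm1 lie above the upper line, and the 4 receptor genes lie between -0.04 and 0.37.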

How the data were processed

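RNA of 2 libraries of MP cells was purified on RNeasy columns with DNase and made into TruSeq libraries, per the labels' protocols. The authors deposited 1 table of RPKM values with a column per library, per the file headers. Trimmomatic 0.32, TopHat2, HTSeq, edgeR and build mm9 are named in the submitters' processing notes; their settings, annotation and strand use were not found in these sources, so close copies, overlapping genes and antisense partners may share reads. Of 24015 rows, 27 with date-like names (0.109% of summed RPKM) were left out. No column was left unused.

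The 40 members and the lists were chosen with earlier results of these data known. All members are named, with the 4 highest genes of each other list and those a count of 5 or fewer refers to. Some genes that this naming takes are left out of the text.

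Read totals are unknown. The value of 1 read differed between libraries by a factor of 1.04 (replicate 2 over replicate 1), shared by 474 genes with equal read numbers (tolerance 1e-05). With it, the smallest whole read numbers were found for 93.5% of 15175 genes above 0 in both, and for 36 members. They are lower bounds, so exact binomial 95% intervals of the fold are at their widest, and they cover counting error only. The code was checked on simulated data. Python 3.11.15, pandas 2.3.3 and scipy 1.17.1 were used. Alternatives covered the pseudocount, filters, scaling, medians against means, single libraries and the motif.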

Additional observations from a re-analysis of the deposited data

How the results depend on the processing

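Direction was kept by the 3 differences between gene groups and the median log2 ratio under each alternative tried. The other results are a level and counts, which have no direction to reverse. With a pseudocount of 0.1, receptor minus induced genes gave 4.45, IFITM minus IFIT and OAS genes 7.03, and GTPase minus IFIT and OAS genes 1.77. Means in place of medians gave 3.44 for receptor minus induced genes, 6.03 for IFITM and 1.30 for GTPase genes against IFIT and OAS genes. Without the highest gene of each group the values were 3.54, 5.73 and 1.13 in the same order. In single libraries they ran from 3.99 to 4.25, from 5.97 to 6.32 and from 1.20 to 1.22. The median level of 4.40 RPKM over both libraries was 6.05 with a mean of log2(RPKM + 1), and 3.61 to 4.75 in single libraries. The 27 detected genes became 16 at a minimum of 5 RPKM, and 27 to 32 in single libraries. The shares of all genes at these settings were not counted, so these counts have no background beside them. The median log2 ratio of 0.50 was 0.29 over the 18 genes at a mean of 5 RPKM or more and 0.28 with no filter. The 2 genes at least 2-fold higher in replicate 2 became 9 with a pseudocount of 0.1, against 7.37% of all genes. They became 13 at 1.5-fold, against 11.3% of all genes. At a mean of 5 RPKM or more 1 gene was left, and the share of all genes there was not counted. The cause was not tested. No paired analysis was possible because the labels give 1 group. Genes under 0.1 RPKM rest on few reads.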

Other observations

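The IFIT cluster holds 3 further genes under older symbols, looked up after their neighbours' values were seen. The gene listed as 2010002M12Rik, now Ifit1bl2, had 1.46 RPKM in replicate 2 and 4.88 RPKM in replicate 1, so it was higher than Ifit1 and Ifit3 in both libraries and, unlike most of the panel, lower in replicate 2. I830012O16Rik, now Ifit3b, had 0.0361 RPKM in replicate 2 and was listed at 0 in replicate 1. Gm14446, now Ifit1bl1, had 0.0240 RPKM in replicate 2 and 0.0889 RPKM in replicate 1. How the authors handled reads shared between such copies is not stated.

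The receptor for type III interferon, also looked up after the data were seen, was expressed in both libraries. Ifnlr1, its specific chain, had 13.5 RPKM in replicate 2 and 7.23 RPKM in replicate 1. Il10rb, the chain it shares with the IL-10 receptor, had 27.8 RPKM in replicate 2 and 29.7 RPKM in replicate 1. The interferon genes Ifnl2 and Ifnl3 were listed at 0 in both libraries.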
